A study of Mus musculus with 8 samples.

Results

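Nuclear-encoded genes of oxidative phosphorylation were followed in RNA from the ventral pallidum (VP), a basal forebrain region of the reward system. The members are the protein-coding genes whose symbols begin with the names of the subunits of complex I (Ndufa, Ndufb, Ndufc, Ndufs, Ndufv), complex II (Sdha to Sdhd), complex III (Uqcr, Cyc1), complex IV (Cox4 to Cox8) and complex V (Atp5). This gave 90 of the 14353 genes in the table, 44 in complex I, 4 in complex II, 9 in complex III, 16 in complex IV and 17 in complex V. Of these, 80 encode subunits and 10 share a prefix but are counted here as assembly factors, such as Ndufaf8. Ndufa4 was named for complex I but is counted with complex IV. The rule used symbols only and no measured value, but it was chosen with earlier results of these data known. All 90 members were over 1 CPM (counts scaled to the library's size) in at least 3 libraries and were tested.

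The mice came from a cross of vGluT2-Cre and RiboTag lines and, by the labels, were homozygous for VGluT2-Cre and heterozygous for the Rpl22 allele. Cells that express Cre from the vGluT2 locus, at any time in their history, carry ribosomes with a hemagglutinin tag on Rpl22. TRAP libraries hold the mRNA that was pulled down with these ribosomes, and INPUT libraries hold RNA of the tissue lysate, which the labels describe as all neurons and glia (the methods also speak of an unbound fraction). Tissue from 38 untreated mice (15 male, 23 female, 9 to 16 weeks old) was combined into 4 pools of 7 to 11 mice, labelled VP1.6, VP2.2, VP2.6 then VP2.11, and values by pool follow this order. A pool gave 1 TRAP and 1 INPUT library, so n = 4 per fraction, and both fractions carry the same alleles. By the methods the tissue punches may include some of the neighbouring striatum.

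Oxidative phosphorylation passes electrons from NADH (complex I) or succinate (complex II) through complex III and cytochrome c to oxygen at complex IV, and complex V uses the proton gradient that this builds to make ATP. Neurons depend on it for the ATP that ion pumping and synaptic transmission consume. Each complex has a few large subunits that hold the redox centres or the catalytic sites. Apart from complex II, each also has many small accessory subunits around them. The large subunits are here called core, a list that also holds some other subunits named further on. The subunits of complexes I, III, IV and V come from both genomes: the mitochondrial DNA encodes some subunits of each, which mitochondrial ribosomes translate, and the nucleus encodes the rest, which cytosolic ribosomes translate. The HA tag sits on a cytosolic ribosomal protein.

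The pull-down was checked with Slc17a6, which encodes vGluT2. It was higher in TRAP in 4 of 4 pools, at 143 ± 13.6 CPM (SD, n = 4) against 25.9 ± 10.3 CPM in INPUT, with a log2 fold change of 2.55 ± 0.24 (SE) and an adjusted p of 7.3e-06 (limma, pool as block). Pan-neuronal markers were higher in TRAP for 4 of 5 genes, and their summed level was 19041 to 27473 CPM in TRAP against 5480 to 10591 CPM in INPUT. Markers of other cells fell in TRAP for 4 of 5 astrocyte genes (summed 150.0 to 253 CPM against 343 to 502 CPM), 4 of 5 oligodendrocyte genes (900.0 to 1631 CPM against 3506 to 3807 CPM) and 3 of 5 microglial genes (24 to 32 CPM against 79 to 126 CPM), and no marker tested was at 0 in the mean of either fraction. Of 3 endothelial genes in the table, Flt1 was higher in TRAP (summed 7 to 37 CPM against 2 to 7 CPM), and of 3 GABAergic genes Slc32a1 was lower (summed 918 to 1573 CPM against 584 to 1394 CPM). The summed glial markers were higher in INPUT in every pool, and the part of this in the results below was not tested. In bulk libraries fewer cells of a type and less RNA per cell cannot be told apart.

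The levels of single libraries carry a limit. In the low genes of VP2.2 and VP2.6, where neither fraction's values were rounded, 0.221% or fewer of the values of a library were repeated by another low gene, whereas 38.8% and 57.2% of the TRAP minus INPUT differences within the pool were repeated. Within a gene, TRAP and INPUT levels ran against each other over the 4 pools, with a median correlation of -0.85 over 14249 genes. All 3320 genes that were higher in TRAP in every pool also had all TRAP levels above all INPUT levels, so that fractions without overlap show no more than differences of 1 sign in the 4 pools. The values thus look as if a shift per gene and pool had been taken out of both fractions. The sources used here do not state such a step. Differences within a pool keep whole-read steps, so the comparisons below rest on them, through a limma fit with the pool as a block. The SD of a fraction's levels, in contrast, may lack the spread that both libraries of a pool share.

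Of the 90 members, 39 were lower and 4 were higher at an adjusted p under 0.05 (limma, adjusted over 14249 genes), where 16.8% of all genes tested were lower and 15.4% were higher. The median log2 fold change of the members was -0.59, against -0.05 for all genes tested. The sign was negative for 74 members and positive for 16. In all 4 pools, 45 members were lower and 7 were higher, where 24.4% and 23.3% of all genes were. The 4 members that were higher were Ndufs1, Ndufv1, Uqcrc2 and Atp5a1, all of which encode large subunits. Without the block, on which the shift within pools bears, 46 members were lower and 6 higher (24.8% and 23.2% of all genes). If such a shift was taken out, the fit without the block does not allow for it, and its p-values may be too small. The transcripts of the members were short, with a median principal transcript of 870.0 bases against 3112 bases for all genes with one, and the members' direction depended on length, as described further on.

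**Figure D1:**
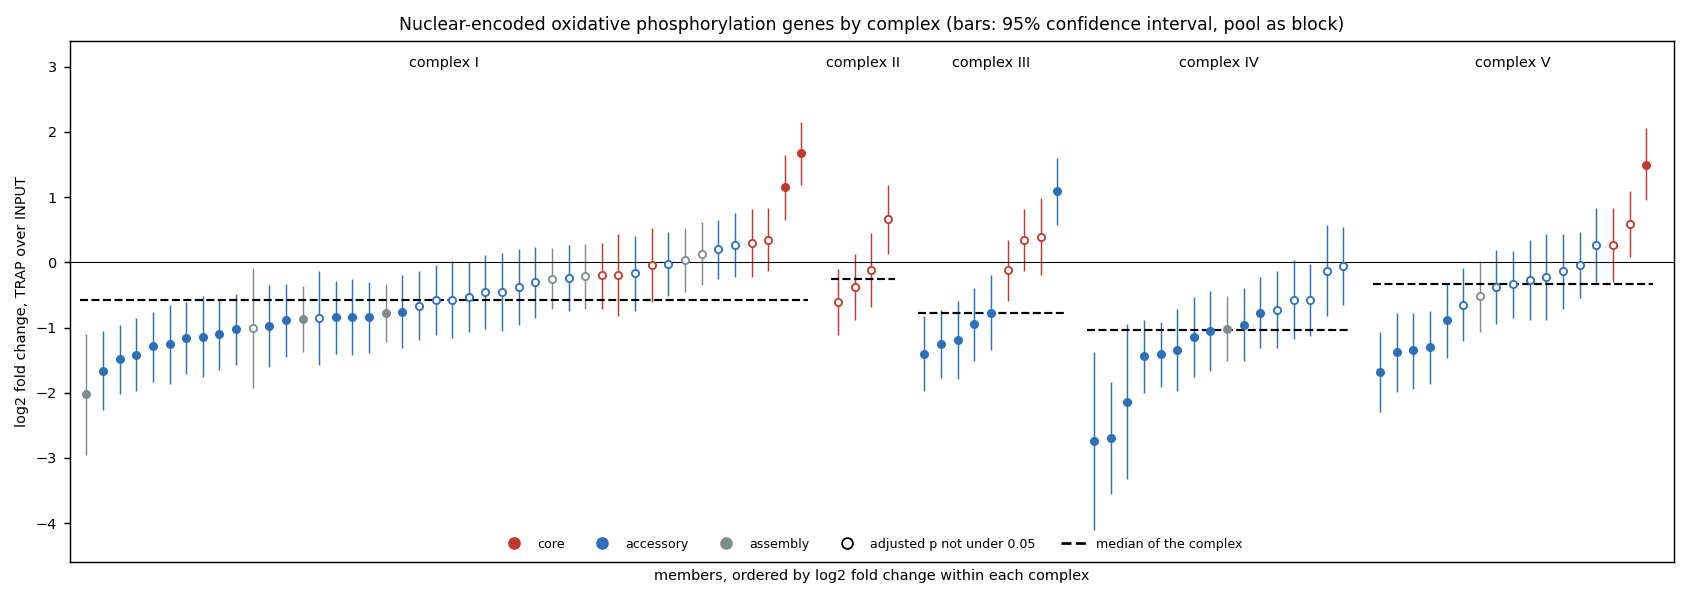
Log2 fold change of TRAP over INPUT for the 90 members, ordered by value along the x axis within each complex, with the 95% confidence interval of the limma fit with the pool as block (n = 4 pools). Filled points have an adjusted p under 0.05, colours give the role and dashed lines the median of each complex, from -1.04 in complex IV to -0.25 in complex II. The right end holds core subunits in complex I (Ndufv1, Ndufs1) and complex V (Atp5b, Atp5a1), and Uqcrc2 in complex III.

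The complexes ranked from complex IV, with the lowest median log2 fold change (-1.04), through complex III (-0.77), complex I (-0.57) and complex V (-0.33) to complex II (-0.25). In complex IV, 11 of 16 members were lower and none was higher, and all 16 had a negative sign. Complex III had 5 of 9 lower and 1 higher, complex I had 18 of 44 lower and 2 higher, and complex V had 5 of 17 lower and 1 higher. None of the 4 members of complex II was called in the fit with the block, and at an unadjusted level the intervals of Sdhc (-1.11 to -0.10) and Sdha (0.13 to 1.19) lay on either side of 0. The SD of the 4 pool medians was 0.50 in complex IV, 0.67 in complex III, 0.56 in complex I, 0.64 in complex V and 0.56 in complex II. This spread includes what the complexes share in a pool, so it does not measure a gap between complexes within pools. By pool, complex IV (-0.90, -1.63, -0.55 and -0.58) was below complex I (-0.59, -1.42, -0.19 and -0.26) each time. Complexes III (-0.82, -1.73, -0.60 and -0.15) and IV changed places between pools. The order of the complexes was not tested. Without VP2.2 the medians were -0.27 (I), 0.01 (II), -0.41 (III), -0.76 (IV) and -0.04 (V). All of the nuclear subunits of complex IV are accessory, since its core subunits are encoded in the mitochondrial DNA.

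The roles had different medians. The 17 core subunits had a median log2 fold change of 0.30, with 3 higher (17.6%, near the 15.4% of all genes tested) and none lower, whereas the 63 accessory subunits had a median of -0.84, with 35 lower (55.6%, against 16.8% of all genes) and 1 higher. The difference between roles was not tested, and the lists of roles were written with earlier results of these data known. The 10 assembly factors had a median of -0.65, with 4 lower and none higher. The core list also held the membrane anchors Sdhc and Sdhd and the gamma subunit Atp5c1. The delta and epsilon subunits Atp5d (-0.33) and Atp5e (-1.68) were counted as accessory. The list of core subunits held Uqcrc1 but not its partner Uqcrc2, although both are large structural proteins of complex III without a redox centre. Only the placement of Uqcrc1 and Uqcrc2 was varied. With Uqcrc2 added, the core median was 0.32 with 4 of 18 higher, and without Uqcrc1 it was 0.28 with 3 of 16 higher. The median principal transcript was 1623 bases long in core and 704 bases in accessory members.

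The 4 members that were higher in TRAP carried the clearest differences in this direction. Ndufs1 (chr1:63143596-63176833, GRCm38) encodes the largest subunit of complex I, which carries iron-sulfur clusters. Its levels in the 4 pools were 585, 551, 572 and 530.0 CPM in TRAP and 197, 115, 185 and 226 CPM in INPUT. TRAP was higher in 4 of 4 pools, and the log2 fold change was 1.67 ± 0.23 (SE; 95% confidence interval 1.18 to 2.16; limma adjusted p = 0.00016). Ndufv1 (chr19:4007384-4012806), which binds NADH and the flavin through which electrons enter complex I, stood at 994, 716, 1002.1 and 898 CPM in TRAP and 393, 419, 363 and 446 CPM in INPUT. It was likewise higher in all 4 pools, and the log2 fold change was 1.15 ± 0.23 (SE; 0.65 to 1.64; limma adjusted p = 0.0021).

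Uqcrc2 (chr7:120635176-120659524), a core protein of complex III, had 1358, 1089, 1442.1 and 1176.3 CPM in TRAP against 600, 552, 528 and 690.0 CPM in INPUT, with a log2 fold change of 1.09 ± 0.24 (SE; limma adjusted p = 0.0034). Of its 75-base windows, 22.8% recur in annotated transcripts of other genes, so that unique reads may undercount it. Atp5a1 (chr18:77773729-77782869), the alpha subunit of the catalytic head of ATP synthase, was the member with the highest CPM in TRAP, at 3785.3, 2753, 3410.0 and 3565.8 CPM, against 1176.3, 1089.2, 1213.8 and 1260.7 CPM in INPUT. Its log2 fold change was 1.5 ± 0.26 (SE; 0.95 to 2.06; limma adjusted p = 0.00076). These 4 genes stayed higher at an adjusted p under 0.05 with any single pool left out, with the lowest log2 fold change at 0.98 (Uqcrc2 without VP2.6).

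**Figure D2:**
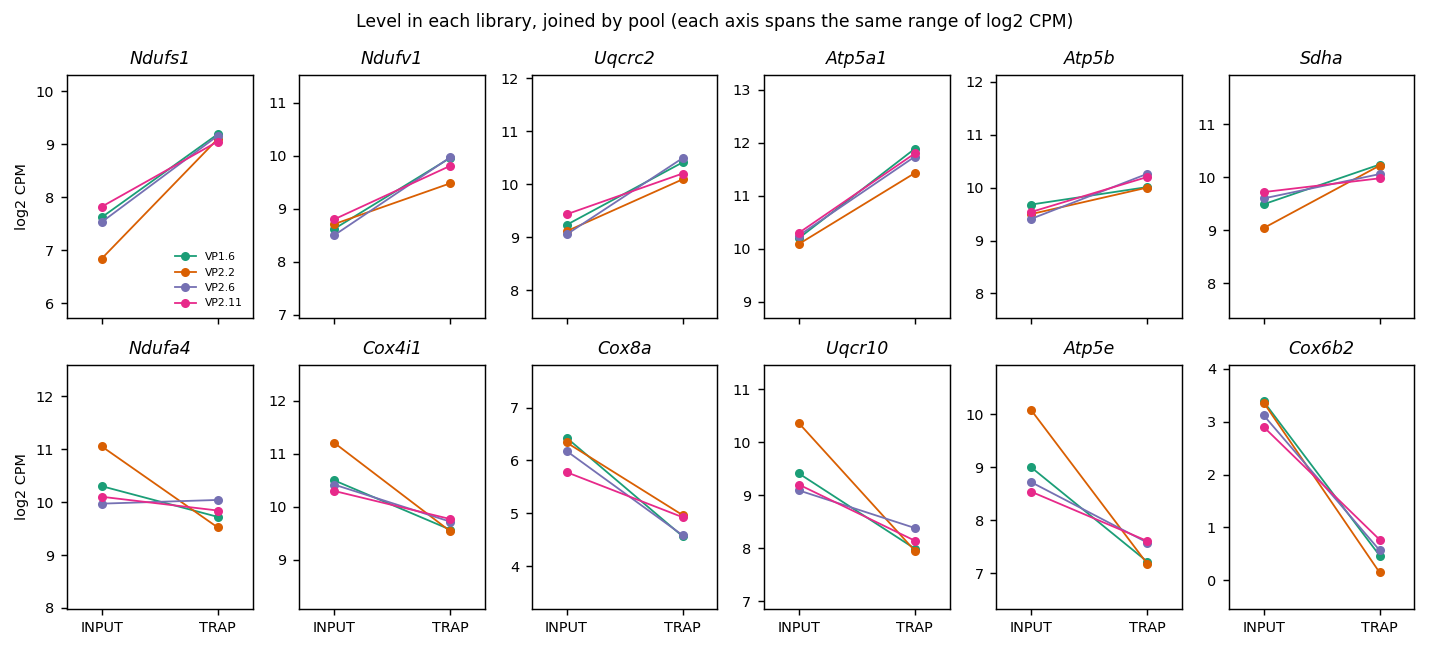
Level of 12 members in each library, in log2 CPM, with the INPUT and TRAP library of a pool joined by a line in the colour of the pool; each axis spans the same range. Ndufs1, Ndufv1, Uqcrc2, Atp5a1, Atp5b and Sdha rise from INPUT to TRAP in all 4 pools, while Cox4i1, Cox8a, Uqcr10, Atp5e and Cox6b2 fall in all 4 and Ndufa4 rises in VP2.6.

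The other core subunits did not pass the test with the block. In complex I, Ndufs3 (log2 fold change 0.30 ± 0.25, SE) had a positive value, and Ndufv2 (-0.04 ± 0.27), Ndufs8 (-0.19 ± 0.29) and Ndufs7 (-0.20 ± 0.24) lay near 0. Ndufs8 shows how much a single pool weighed: its difference was -1.48 in VP2.2, against -0.02 to 0.40 in the other pools. In complex III, Uqcrc1 (0.39 ± 0.27), the Rieske iron-sulfur protein Uqcrfs1 (0.35 ± 0.22) and cytochrome c1 (Cyc1, -0.12 ± 0.22) had adjusted p values of 0.29, 0.26 and 0.71 (limma).

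The catalytic beta subunit of ATP synthase, Atp5b, was higher in all 4 pools, by 0.33 to 0.85 on the log2 scale, but its adjusted p was 0.071 (limma), or 0.038 without VP2.2. Atp5c1, the gamma subunit of the rotor shaft, was at 0.27 ± 0.26 (SE). Among the subunits of complex II, the flavoprotein Sdha also had the higher level in TRAP in all 4 pools (0.66 ± 0.25 SE, limma adjusted p = 0.053), the iron-sulfur subunit Sdhb was at -0.12 ± 0.27, and the membrane anchors Sdhc and Sdhd were at -0.61 ± 0.24 and -0.38 ± 0.24 (limma adjusted p = 0.061 and 0.24). Without the block Sdha and Atp5b were called higher (limma adjusted p = 0.0087 and 0.0052) and Sdhc lower (limma adjusted p = 0.016). If a shift per pool was taken out of the values, the fit without the block does not allow for it. Its p-values may then be too small, and the SE of Atp5b was 0.13 there, against 0.24 with the block. Within complex V, Atp5a1 was thus higher in TRAP while 5 small subunits of the same enzyme were lower. With the trend of all genes on principal transcript length removed (described further on), Atp5a1 stayed higher (1.55, limma adjusted p = 2.9e-05). Of the 5, only Atp5j2 was then still lower (-0.65, limma adjusted p = 0.014).

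The small accessory subunits made up most of the members that fell. In complex I, 15 of 29 accessory members were lower and none was higher, from Ndufa3 (-1.66 ± 0.28 SE) to Ndufab1 (0.26 ± 0.23). With the trend of all genes on principal transcript length removed (described further on), 4 of the 29 were lower and 5 were higher. The supernumerary subunit Ndufa3 had 162, 173, 226 and 215 CPM in TRAP against 600, 1146.4, 456 and 437 CPM in INPUT, a 3.17-fold lower level (limma adjusted p = 0.00062). All TRAP levels were below all INPUT levels, and the INPUT level of VP2.2 was the highest. Ndufa11, which had the highest INPUT level per kilobase in complex I (1330.0 CPM per kb), was at -0.38 ± 0.27 and not called. The lowest member of complex I was Ndufaf8, an assembly factor of low level, with 2.89, 3.07, 1.83 and 10.2 CPM in TRAP against 10.4 to 18.8 CPM in INPUT (log2 fold change -2.02 ± 0.43 SE, limma adjusted p = 0.003). Its fractions did not overlap, but in VP2.11 they differed by only -0.03, and by -2.99 to -2.37 in the other pools.

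In complex III, 5 of the 6 accessory members were lower, from -0.77 to -1.4, and Uqcrc2 was the exception. Of these 5, only Uqcrq was still lower with the trend of all genes on principal transcript length removed (-0.62, limma adjusted p = 0.025), as described further on, and Uqcrb, of which 29.1% of windows recur in other genes, went from lower (-0.77, adjusted p = 0.043) to higher (0.46, adjusted p = 0.04). Uqcr10, the smallest transcript among the 9 with 434 bases, fell from 680.0, 1311.4, 545 and 588 CPM in INPUT to 254, 248, 333 and 282 CPM in TRAP (log2 fold change -1.4 ± 0.27 SE, limma adjusted p = 0.0016). In complex V the epsilon subunit Atp5e was lowest, with 149, 145, 192 and 195 CPM in TRAP against 512, 1082.6, 420.0 and 372 CPM in INPUT (log2 fold change -1.68 ± 0.29 SE, limma adjusted p = 0.00071). Atp5k, Atp5j2, Atp5mpl and Atp5l, small membrane subunits, were also lower, although 76% of the 75-base windows of Atp5l recur in other annotated genes and its value is uncertain. Of these lower members of complex V, only Atp5j2 was still lower with principal length removed. The delta subunit Atp5d and the peripheral stalk subunits Atp5f1, Atp5o, Atp5h and Atp5j were not called, at -0.04 to -0.65.

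Several subunits have isoforms that differ between tissues, and the isoforms differed in level more than in direction. Cox4i1, the common form of subunit 4, had 758, 742, 843 and 873 CPM in TRAP against 1448.2, 2363.9, 1373.2 and 1260.7 CPM in INPUT, 1.94-fold lower (log2 fold change -0.96 ± 0.26 SE, limma adjusted p = 0.013, or 0.057 without VP1.6). Cox4i2, the form known from lung, was far lower in level, with 0.228, 0.589, 0.833 and 1.68 CPM in TRAP against 6.19, 4.62, 3.94 and 3.39 CPM in INPUT (log2 fold change -2.74 ± 0.64 SE, limma adjusted p = 0.0049). Cox6b2, a form known from testis, fell from 9.21 ± 1.4 CPM (SD, n = 4) to 1.42 ± 0.247 CPM in TRAP, with differences from -3.21 to -2.13 in the 4 pools (limma adjusted p = 0.00028), while its common counterpart Cox6b1 was at -0.73 ± 0.28 SE and not called (limma adjusted p = 0.056, or 0.038 without VP2.6). For subunit 6a, the liver-type Cox6a1 was lower (-1.34 ± 0.30 SE, limma adjusted p = 0.0036). With the trend of all genes on principal transcript length removed (described further on), neither Cox6a1 (-0.17) nor Cox4i1 (-0.03) was called. Cox4i2 (-1.78) and Cox6b2 (-1.55) stayed lower.

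The heart-type Cox6a2 was lower by 2.70 to 3.86 on the log2 scale in 3 pools but higher by 1.00 in VP2.11, where TRAP reached 27.7 CPM. Its fitted log2 fold change was -2.14 ± 0.56 (SE, limma adjusted p = 0.0097), and it was no longer called without VP2.2 (-1.56, adjusted p = 0.079), whereas it was -3.18 without VP2.11. The muscle form Cox7a1 was at 7.6 ± 1.94 CPM in TRAP and 8.18 ± 1.29 CPM in INPUT (SD, n = 4), with a log2 fold change of -0.13 ± 0.33 (SE), while Cox7a2 (-1.05 ± 0.29) and the supercomplex factor Cox7a2l (-1.02 ± 0.24) were lower (limma adjusted p = 0.012 and 0.0047). Cox8a was lower in all 4 pools, by 0.85 to 1.86 (limma adjusted p = 0.00055), and Cox7b was at -0.57 ± 0.26 (limma adjusted p = 0.10). Cox5a, a subunit with 1 form, was the highest of complex IV at -0.06 ± 0.28. With principal length removed, Cox6a2 (-1.11), Cox7a2 (0.00), Cox7a2l (-0.39) and Cox8a (-0.21) were no longer called. Cox7a1 (1.36) and Cox5a (1.02) were then called higher.

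The genes Atp5g1, Atp5g2 and Atp5g3, encode the identical mature subunit c of the rotor ring. They were at -0.27 ± 0.29, -0.38 ± 0.26 and 0.26 ± 0.26 (SE) on the log2 scale, and none was called. Their levels in TRAP were 612 ± 120.0, 189 ± 35.2 and 837 ± 153 CPM (SD, n = 4), against 763 ± 295, 253 ± 92.4 and 704 ± 178 CPM in INPUT, so that Atp5g1 was ahead in INPUT and Atp5g3 in TRAP by their means, with overlapping libraries. Of the windows of Atp5g2, 35.8% recur in other annotated genes.

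Ndufa4, a subunit of cytochrome c oxidase, had the highest level per kilobase of principal transcript among all 90 members in both fractions, at 1452.9 ± 219 CPM per kb in TRAP and 2245.1 ± 836 CPM per kb in INPUT (SD, n = 4). It lies at chr6:11900292-11907497. Its levels were 844, 733, 1052.1 and 917 CPM in TRAP and 1260.7, 2117.2, 1002.6 and 1097.5 CPM in INPUT. The fractions overlapped, with TRAP the higher in VP2.6, and the log2 fold change of -0.58 ± 0.28 (SE; 95% confidence interval -1.18 to 0.03) did not pass the test (limma adjusted p = 0.13). In INPUT, Cox4i1 (2106.5 CPM per kb), Uqcr10 (1800.1), Cox6c (1756.9) and Uqcrh (1532.3) followed. In TRAP the order per kilobase was Ndufa4, Atp5a1 (1367.3), Atp5g3 (1157.5), Atp5c1 (1072.1) and Atp5o (1066.5). By these means, subunits of ATP synthase took the places that small subunits of complexes III and IV held in INPUT. Cox4i1 was next in TRAP (1051.4 ± 83.4, SD), close to Atp5o (SD 218), of whose windows 37.2% recur in other annotated genes. Per kilobase, Atp5a1 was at rank 42 of 90 in INPUT and at rank 2 in TRAP.

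The pools differed in the size of the members' differences but ordered the members alike. The median difference of the members was -0.57 in VP1.6, -1.44 in VP2.2, -0.15 in VP2.6 and -0.31 in VP2.11, while that of all genes tested lay between -0.04 and -0.01. VP2.2 had the lowest median for every complex. It also had the highest summed level of the members in INPUT, 61414 CPM against 33464 to 38115 CPM in the other pools. Its marker genes also differed from those of the other pools: the 3 GABAergic markers summed to 1573 CPM in TRAP and 584 CPM in INPUT, against 918 to 1071 CPM and 1214 to 1394 CPM elsewhere, and the astrocyte and oligodendrocyte markers were highest in its TRAP library (253 and 1631 CPM). Their part in the members' values was not tested. Since a pool's shift may have been taken from both of its libraries, whether the INPUT or the TRAP library of VP2.2 stood apart cannot be told apart. Across the 90 members, the differences in any pair of pools had a Spearman's rho of 0.637 to 0.908, a description across genes of libraries that share their preparation. Without VP2.2, the median of the members was -0.37, with 31 lower and 5 higher (2037 and 2119 of all 14249 genes tested). Without VP1.6, 28 were lower and 4 higher (1673 and 1559 of all genes). With all pools, 2393 of all genes were lower and 2199 higher, so fewer genes were called over the whole table too.

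**Figure D3:**
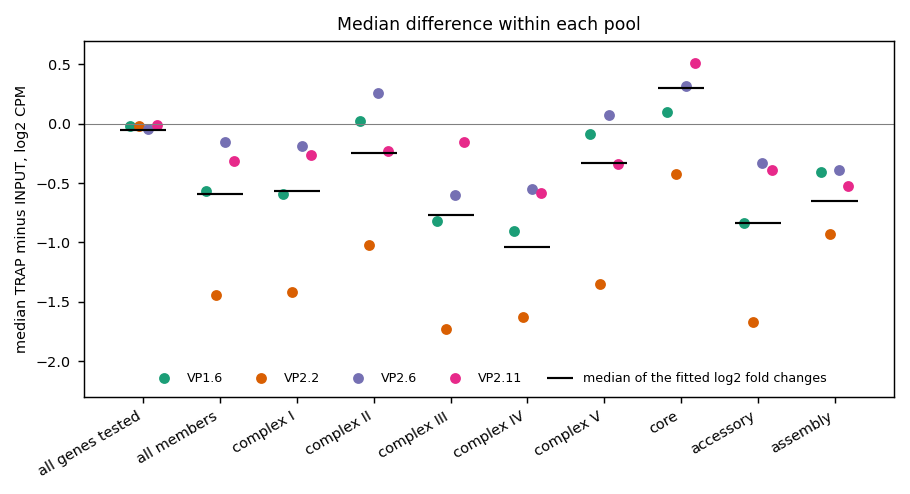
Median TRAP minus INPUT difference, in log2 CPM, within each of the 4 pools (coloured points) for all genes tested, the 90 members, each complex and each role; black bars give the median of the fitted log2 fold changes. VP2.2 lies lowest in every group of members, at -1.44 over all of them, while all genes tested stay between -0.04 and -0.01.

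Transcript length ran alongside these differences. The principal transcript is taken as the longest of those with the best APPRIS tag, which marks the main isoform of a gene. Among genes with a principal transcript under 600 bases, the median log2 fold change was -1.36 over 138 genes tested and -1.34 over the 19 members. From 600 to 800 bases it was -0.92 over 249 genes and -0.84 over 22 members, and from 800 to 1200 bases it was -0.69 over 734 genes and -0.57 over 19 members. From 1200 to 2000 bases the 21 members were at -0.04 and 2074 genes at -0.28, and the 7 members from 2000 to 4000 bases were at 0.26 and 5237 genes at 0.01. In these 5 length classes the members' median was not below that of all genes, while the 2 members of 4000 bases or more were at -0.51, where 4305 genes were at 0.34. Among genes under 600 bases, 71.0% of all tested were lower in TRAP, as were 16 of the 19 members. Spearman's rho between log2 fold change and principal length was 0.624 across the 90 members and 0.385 across 12737 genes, given as a description, since genes are not independent replicates. Within complexes it was 0.559 for complex I (44 genes), 0.817 for complex III (9), 0.121 for complex IV (16) and 0.667 for complex V (17).

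**Figure D4:**
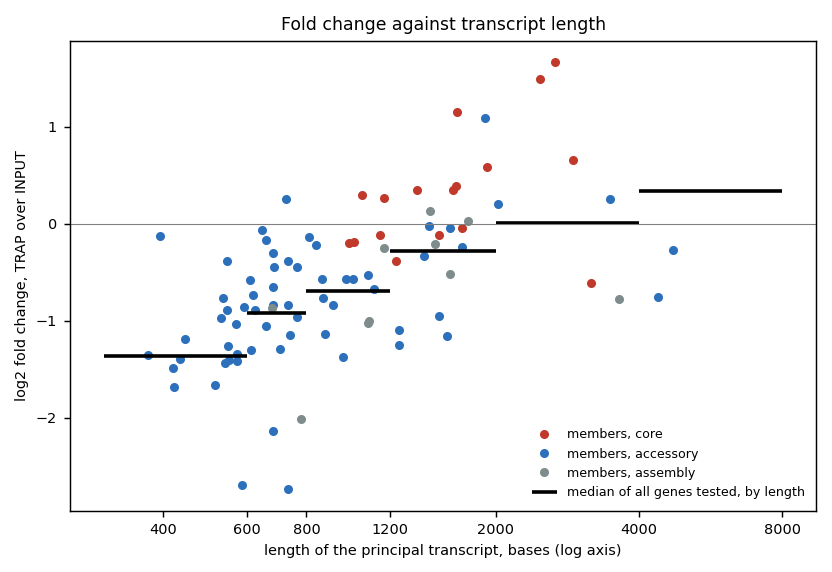
Log2 fold change of TRAP over INPUT against the length of the principal transcript in bases (log axis) for the 90 members, coloured by role, with black bars for the median of all genes tested in 6 length classes. The bars climb from -1.36 under 600 bases to 0.34 from 4000 bases on; accessory members scatter about them and most core members lie above.

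The comparison was therefore repeated with the length trend of all genes removed within each pool. With the trend on total exon length removed, 21 members were lower and 13 higher (16.8% and 15.4% of all genes), and the median was -0.18. With the trend on principal transcript length removed, an alternative chosen after the data were seen, 11 members were lower and 25 higher (14.6% and 18.6% of 12737 genes), and the median turned to 0.18. The direction of the members as a group thus depended on the length that was allowed for, and what lies behind the length trend was not tested. The 4 members higher in TRAP without any correction were higher under both. The core subunits had a median of 0.57 with exon length removed (9 of 17 higher, none lower) and of 0.65 with principal length removed (10 higher, Sdhc lower), against -0.37 and 0.11 for the accessory subunits. Under all 3 fits, 9 members were lower: Cox6b2, Cox4i2, Ndufaf8, Ndufb2 and Ndufaf4, with less than 100 CPM in TRAP, and Ndufc1, Ndufv3, Ndufa13 and Atp5j2, with a mean of 164 to 301 CPM.

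With principal length removed, the complexes stood at 0.18 (I), 0.30 (II), 0.21 (III), -0.10 (IV) and 0.32 (V). Complex IV thus had the lowest median in each of the 3 fits. Its calls were then near the shares of all genes, with 2 of 16 lower (12.5%, against 14.6%) and 3 higher (18.8%, against 18.6%). The lower ones were Cox4i2 and Cox6b2, with a mean of 0.833 and 1.42 CPM in TRAP. Ndufa4 was then called higher (0.55, adjusted p = 0.026), as were Atp5g3 (1.24, adjusted p = 0.00013), Atp5c1 (0.83, adjusted p = 0.0023) and Cox7a1 (1.36, adjusted p = 0.00083), while Cox4i1 was at -0.03 (adjusted p = 0.90; limma in each case).

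The mitochondrially encoded subunits of the same complexes differed from the nuclear ones by far more. All 13 were lower in TRAP, with a median log2 fold change of -5.48 (44.5-fold lower) and no overlap of the fractions in any. mt-Co1, the catalytic subunit of complex IV, had 73.0 ± 31.0 CPM in TRAP and 2730.9 ± 1098.5 CPM in INPUT (SD, n = 4; log2 fold change -5.21 ± 0.22 SE, limma adjusted p = 1.2e-09). The complex III subunit mt-Cytb was at -6.10 ± 0.23, and among the complex I subunits mt-Nd3 was lowest (-6.87 ± 0.32) and mt-Nd6 highest (-4.29 ± 0.35). The others were mt-Nd1 (-5.48), mt-Nd2 (-5.47), mt-Nd4 (-5.40), mt-Nd4l (-6.74), mt-Nd5 (-4.92), mt-Co2 (-6.77), mt-Co3 (-6.54), mt-Atp6 (-6.33) and mt-Atp8 (-5.45). mt-Nd4l and mt-Atp8 had a mean of 0.057 and 0.0894 CPM in TRAP, which may be less than 1 read, so their values depend on how the authors treated 0 counts. The RNA of these subunits is translated inside mitochondria, by ribosomes without the tag. Their summed level in TRAP was 171 to 475 CPM, against 5920 to 16868 CPM in INPUT, a ratio of 0.0178 to 0.0288 within pools. The same ratio for the summed nuclear members was 0.447 to 1.06. With principal length removed the mitochondrially encoded median was -4.99.

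Of 17 genes of the citrate cycle and of pyruvate dehydrogenase, which feed NADH and succinate to the chain, 10 were higher in TRAP and none was lower, with a median of 0.82. The higher genes were 58.8% of this list, against 15.4% of all genes tested. They ran from Suclg2 (-0.82 ± 0.36 SE, not called) to Dlat (1.38 ± 0.21), a subunit of pyruvate dehydrogenase, and Mdh2, malate dehydrogenase, had 2157.3 ± 469 CPM in TRAP against 925 ± 88.7 CPM in INPUT (SD, n = 4; log2 fold change 1.2 ± 0.27 SE, limma adjusted p = 0.0037). These transcripts were longer, with a median principal transcript of 2544 bases, and with principal length removed 14 were higher and the median was 1.04. The 4 subunits of complex II belong to both pathways. Sdha was at 0.66, while Sdhb was at -0.12, Sdhd at -0.38 and Sdhc at -0.61, and none was called in the fit with the block.

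Of 40 assembly factors outside the symbol rule, 37 were in the table, with a median of -0.62. Of these, 14 were lower (37.8%, against 16.8% of all genes tested) and 1 was higher (2.7%, against 15.4%). With exon length removed, 11 were lower (29.7%, against 16.8%). With principal length removed, 8 were lower (21.6%, against 14.6%) and the median was -0.29, and 1 was higher in either fit. The copper chaperone Cox17 was lowest (-2.76 ± 0.51 SE, limma adjusted p = 0.0012) and Acad9, a complex I assembly factor, highest (1.00 ± 0.23, adjusted p = 0.005). Among 14 genes of cytochrome c and coenzyme Q synthesis, Coq3 was higher (0.65 ± 0.23, limma adjusted p = 0.042), or 7.14% of the list, and none was lower. The lowest was Coq4 (-0.69 ± 0.27, not called), and the cytochrome c gene Cycs was at -0.33 ± 0.26. Of 13 regulators of mitochondrial biogenesis, Gabpa (1.82 ± 0.35 SE, adjusted p = 0.0016), Polrmt (1.17 ± 0.34, adjusted p = 0.016) and Yy1 (0.85 ± 0.31, adjusted p = 0.048; limma in each case) were higher and none was lower. The higher genes were 23.1% of this list, against 15.4% of all genes tested. Gabpa overlaps Atp5j, which lies beside it on chromosome 16, so reads of the overlap cannot be assigned, and Yy1 was higher in 3 of 4 pools. Pprc1 was the lowest (-0.81 ± 0.36, not called). With either length trend removed, 2 regulators were higher and 1 was lower. Yy1 was then no longer called (limma adjusted p = 0.11 with exon length and 0.19 with principal length removed). Pprc1 was called lower (limma adjusted p = 0.036 and 0.029). The coactivator Ppargc1a (0.36 ± 0.24), the factor Nrf1 (0.16 ± 0.29) and the mitochondrial factor Tfam (-0.01 ± 0.23) were not called.

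**Figure D5:**
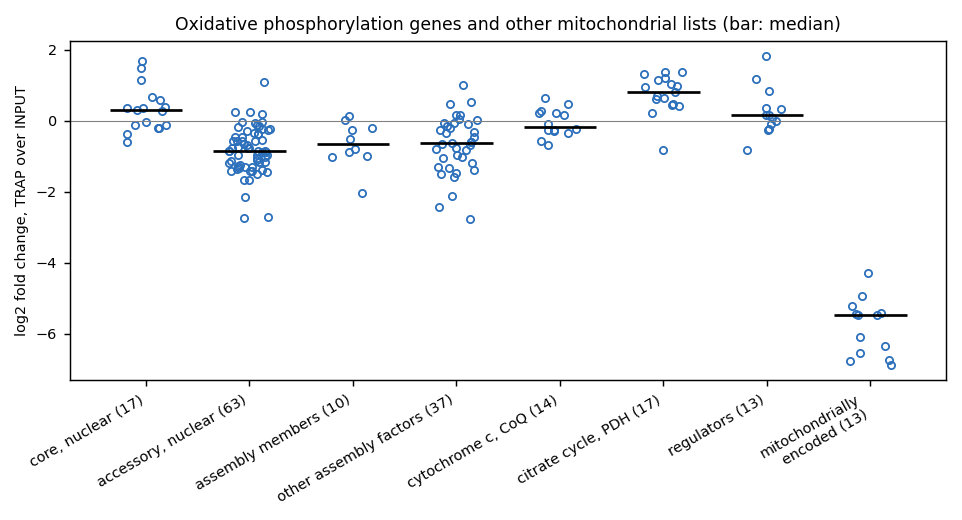
Log2 fold change of TRAP over INPUT for single genes (circles) of 8 lists, with the number of genes in brackets and black bars for medians. The 13 mitochondrially encoded genes lie between -6.87 and -4.29, apart from every other list, and the citrate cycle list (median 0.82) lies above the accessory subunits (-0.84).

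The promoters of the members were read for motifs of the factors that are known to drive nuclear oxidative phosphorylation genes, since the members and their regulators were measured in the same libraries. RefSeq windows (GRCm38.p6, 250 bases before to 50 after a start) matched 73 of the 90 members by gene number. The NRF1 consensus, searched on both strands like the others, was in a window of 24.7% of the 73 members, against 11.4% of 10213 genes tested with a window and 5.19% of all 27025 genes with one. The GABPA motif CCGGAAG was in 24.7% of members, 19.2% of genes tested and 9.93% of all genes. The YY1 motif was in 6.85%, 1.77% and 0.755%. The NRF1 motif was in 5 of 30 members that were lower in TRAP and in 13 of 42 that were not called, and only 1 of the members higher in TRAP had a window, so direction in TRAP cannot be set against motifs there. A match is a description of letters and not a site.

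The 250 bases before the start are shown for Sdha, which holds the most NRF1 matches, and for Cox6a1, a member lower in TRAP with matches of both NRF1 and GABPA. The Sdha window lies at chr13:74350241-74350490 (minus strand) and that of Cox6a1 at chr5:115348959-115349208 (minus strand). Capitals mark the motifs, of which Sdha holds NRF1 3 times and Cox6a1 holds NRF1 2 times and GABPA once, the last on the opposite strand.
Sdha: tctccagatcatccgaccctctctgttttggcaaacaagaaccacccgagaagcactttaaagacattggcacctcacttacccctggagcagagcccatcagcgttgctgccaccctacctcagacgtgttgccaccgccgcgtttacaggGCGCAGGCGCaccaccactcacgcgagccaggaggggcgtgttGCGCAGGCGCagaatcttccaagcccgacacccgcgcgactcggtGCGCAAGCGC
Cox6a1: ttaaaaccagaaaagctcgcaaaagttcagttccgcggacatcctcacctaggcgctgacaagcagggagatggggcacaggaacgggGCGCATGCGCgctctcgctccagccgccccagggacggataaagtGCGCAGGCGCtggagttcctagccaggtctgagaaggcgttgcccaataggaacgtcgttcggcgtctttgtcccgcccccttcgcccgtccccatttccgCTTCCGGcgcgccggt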

How the data were processed

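RNA was sequenced from TRAP and INPUT fractions of 4 pools (numbers of mice and ages are those of the labels, and the study's methods give more samples and mice), paired because the labels give both fractions of a pool the same name and the methods take them from 1 homogenate. The authors aligned single reads with STAR (2.5.1a per the labels) to Ensembl's GRCm38, assigned unique reads to genes by featureCounts and scaled libraries by TMM in edgeR. What the authors deposited is 1 table in log2 CPM. Its columns of their own comparison (fold changes, limits, p-values) were not used.

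The 45 repeated entries among 14398 held the same values as the first and were left out. The INPUT column of VP1.6 and both columns of VP2.11 are rounded to 3 digits, so depth is unknown there. Whole-read steps in low genes put the depth, in units of 1e+06 reads, at 13.1 (TRAP) and 39.6 (INPUT) for VP2.2 and at 13.3 and 26.4 for VP2.6, so low genes are the least precise. These steps appear in differences within a pool and not in single columns, so a count test was not used.

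The 14249 genes that passed 1 CPM in 3 or more libraries were fitted with limma 3.58.1 (lmFit, eBayes with trend; R 4.3.3), the pool as block and a Benjamini-Hochberg threshold of 0.05. The fit was tested on simulated data. TRAP and INPUT deviated from their fraction means with a correlation of -0.745 to -0.495 in the same pool and 0.0457 to 0.441 in different pools. The exact permutation test planned over 8 libraries is not given, because values that carry a shift per pool are not exchangeable. Positions, lengths and 75-base windows came from GENCODE M21 (GRCm38). Length trends were removed by lowess (span 0.3) on the difference in each pool.

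Named were Ndufa4, Cox4i1, the core subunits, the extremes and the most abundant member of each complex, members called in the rarer direction and isoform groups; Ndufa3, Cox6c, Uqcrh and other accessory members, and Mdh2, Cycs, Ppargc1a, Nrf1 and Tfam, were named after their values were seen, and 1 gene is not reported here. Members and lists were chosen with earlier results of these data known. Another 11 pseudogenes fit the symbols but are not protein coding and were left out.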

Additional observations from a re-analysis of the deposited data

Results flagged for a closer look

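Among the named members, the 4 libraries of a fraction were searched for 1 that stood apart from the other 3 (Dixon's test at the 95% level), in 78 groups. Chance would flag about 3.9 of them if the groups were independent. The fractions of a gene mirror each other and the genes share their pools, so the number found cannot be weighed against 3.9. The search found 6, all in VP2.2. In INPUT VP2.2 the log2 CPM was high for Atp5c1 (10.43, others 9.81 to 9.91), Cox7a2 (10.38, others 9.06 to 9.26), Ndufs7 (9.37, others 8.77 to 8.86), Ndufs8 (9.82, others 8.66 to 8.84) and Sdhb (10.13, others 9.21 to 9.36). In TRAP VP2.2 it was low for Atp5c1 (9.95, others 10.34 to 10.41). The high INPUT and low TRAP values of Atp5c1 mirror each other, as values do where a pool's shift has been taken from both libraries.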

How the results depend on the processing

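The 90 members gave 39 lower and 4 higher with the pool as block. Without the replicate block they gave 46 lower and 6 higher, the 39 and 4 calls with the block were all kept, and Atp5b and Sdha were added as higher and Sdhc and Cox6b1 as lower among named genes. Over all genes it gave 3530 lower and 3300 higher, against 2393 and 2199. The p-values without the block may be too small, since a shift per pool may already have been taken out. With the variance trend left out, 22 were lower (1830 lower and 1482 higher of all genes). With the exon length trend removed, 21 were lower and 13 higher. With the principal transcript length trend removed, added after the data were seen, 11 were lower and 25 higher, and the median of the members turned from -0.59 to 0.18. Complex medians then turned to 0.18 (I), 0.30 (II), 0.21 (III) and 0.32 (V), and complex IV moved to -0.10. With exon length removed, complex II turned to 0.17, complex III moved to -0.04 and complex IV to -0.50. Complex II ran from -0.42 to 0.01 with each pool left out, turning without VP2.2. Leaving out each pool in turn gave 28 to 38 lower and 4 or 5 higher, and a median of -0.76 to -0.37. Over all genes these fits gave 1673 to 2235 lower and 1531 to 2119 higher. Under principal length, 16 named genes changed sign, of which those called in either fit were Atp5g2 (0.59), Atp5k (0.18), Cox5a (1.02), Cox7a1 (1.36), Cox7a2 (0.00), Ndufa11 (0.83), Ndufa4 (0.55), Ndufs7 (0.50) and Uqcr10 (0.00, just above 0 like Cox7a2). Under exon length 11 changed sign, with only Cox7a1 (0.86) called in either fit. The cause was not tested. Array weights, another pseudocount, no or a stricter filter, GC content, median centring and subunits alone kept counts within 1.5 times and every median's sign. The same held with 15 members removed that had over 20% of their 75-base windows in other annotated genes (34 lower, 3 higher left). A search of the genome for copies was not run.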
